A study of Mus musculus with 12 samples.

Results

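The Pou5f1 locus was examined as the peaks of open chromatin that lie fully within chromosome 17, 35486018 to 35530772 (GRCm38), which is the gene, on the forward strand, with 20 kb on each side. By this positional rule the locus held 13 of the 91354 peaks defined on BGI data and 14 of the 87027 peaks defined on Illumina data. A further 4 of 61891 MEF peaks and 15 of 67063 mESC peaks, each defined over both platforms, fell in the same window and were used for platform comparisons. Omni-ATAC-seq, in which Tn5 transposase inserts adapters into accessible DNA, had been applied to sorted THY1+ mouse embryonic fibroblasts (MEFs, libraries 1, 2 and 4) and to sorted THY1-/SSEA1+/EPCAM+ mouse embryonic stem cells (mESCs, libraries 1, 3 and 5). All cells were of a C57/Bl6 background, carried no treatment in the labels, and came as 3 biological replicate samples per cell type. Every one of these 6 libraries was run both on the BGI DNBSEQ-G400 and on the Illumina HiSeqX10, giving 12 samples in 4 groups of 3.

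Pou5f1 encodes OCT4, a POU-domain transcription factor required for pluripotency, which is active in embryonic stem cells and silent in fibroblasts. Its transcription in mESCs is controlled by a TATA-less promoter and by a pair of upstream elements, the distal enhancer, used in naive embryonic stem cells, and the proximal enhancer, used in the epiblast. The distal enhancer is a classical target of OCT4 and SOX2 themselves, which bind adjacent Sox and Oct motifs. Each peak was therefore placed in a class by the distance of its centre from the gene start: distal enhancer from -3000 to -1600 bp, proximal enhancer from there to -600 bp, promoter from there to 500 bp and gene body from there to the end of the gene. Peaks beyond these limits were flanking peaks, or neighbour promoters where they lay within 1 kb of the start site of another gene. The classes are distances, and no test of enhancer activity is part of these data.

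The sequences of the 4 elements that the results turn on are shown for 241 bases each, forward strand, from RefSeq GRCm38. Capitals mark matches on either strand to the Sox-Oct composite core TTGTNATGC, the POU octamer ATGCAAAT, the nuclear receptor element AAGGTCA, the GC box GGGCGG or the CACCC box CCACCC. The windows are chr17:35503862-35504102, chr17:35504660-35504900, chr17:35505798-35506038 and chr17:35509394-35509634 in the order given.
Distal enhancer: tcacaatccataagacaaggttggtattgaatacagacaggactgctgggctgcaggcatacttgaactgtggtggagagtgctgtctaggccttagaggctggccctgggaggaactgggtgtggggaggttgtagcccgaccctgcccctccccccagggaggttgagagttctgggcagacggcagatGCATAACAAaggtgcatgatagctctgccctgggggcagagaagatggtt
Proximal enhancer: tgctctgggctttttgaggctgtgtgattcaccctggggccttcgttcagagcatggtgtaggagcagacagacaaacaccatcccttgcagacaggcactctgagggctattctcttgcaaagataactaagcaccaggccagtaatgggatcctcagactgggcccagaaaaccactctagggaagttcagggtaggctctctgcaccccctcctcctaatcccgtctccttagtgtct
Promoter: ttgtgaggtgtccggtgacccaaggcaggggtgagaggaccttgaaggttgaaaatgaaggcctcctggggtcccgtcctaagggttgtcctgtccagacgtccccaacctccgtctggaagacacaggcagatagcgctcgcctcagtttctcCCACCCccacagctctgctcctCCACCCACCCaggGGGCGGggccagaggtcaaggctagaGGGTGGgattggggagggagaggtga
Exon 3 with flanking intron: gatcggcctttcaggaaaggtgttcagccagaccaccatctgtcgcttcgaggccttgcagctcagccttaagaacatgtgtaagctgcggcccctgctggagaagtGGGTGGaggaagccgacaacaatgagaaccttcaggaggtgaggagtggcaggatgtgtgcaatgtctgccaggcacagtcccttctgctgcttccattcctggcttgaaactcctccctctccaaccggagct

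The single capital run of the distal enhancer is a Sox-Oct composite core in reverse orientation, with its first base at -1965 bp. Such a core was held by 1.77% of the 91354 BGI peaks and 1.76% of the 87027 Illumina peaks, and at this locus by the distal enhancer peak alone. The proximal enhancer stretch shown held none of the 5 motifs, although its full BGI peak had a GC box at -1456 bp and a CACCC box at -1092 bp. The promoter stretch held a GC box at -31 bp beside CACCC boxes at -66, -44, -40 and -5 bp, of which those at -44 and -40 overlap. GC boxes (30.8% of BGI peaks and 32.2% of Illumina peaks) and CACCC boxes (45.4% and 45.9%) were common in the peaks of both sets. The POU octamer (3.21% and 3.19%) and the nuclear receptor element (9.58% and 9.54%) matched no peak of the locus with these letters. These matches are letters in a window and were not tested as binding sites. The exon stretch opens with the end of intron 2, closes within intron 3, covers the whole coding exon 3 of Pou5f1-201 (35509408 to 35509538) and holds a CACCC box at 3483 bp.

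The libraries behind these values had 20.1 to 21.7 M reads in BGI peaks for MEFs and 15.9 to 16.9 M for mESCs, and 20.1 to 21.4 M and 16.0 to 17.0 M in Illumina peaks. Levels are given as CPM, the reads in a peak per M reads of that sample in all peaks of the set. All locus peaks of the BGI and Illumina sets are 502 bp long, so that length does not differ between the peaks compared. GC content does (51.8% at the distal enhancer and 63.5% at the promoter, BGI set), and its part in the levels was not tested. The cell types were checked on promoter peaks of marker genes: 6 of 6 mESC markers (Nanog, Esrrb, Zfp42, Tdgf1, Epcam and Dppa5a) were higher in mESCs on both platforms, and 6 of 6 MEF markers (Thy1, Col1a1, Col1a2, Twist1, Prrx1 and Fbn1) were lower. Of 3 endothelial markers Pecam1 and Tek had a promoter peak and neither passed the test, but with start sites within 500 bp another Pecam1 peak was used that was lower in mESCs (-2.81 on BGI and -2.29 on Illumina), and DESeq2, RLE factors, fixed depths and the filter at a mean count of 50 called Tek higher on BGI, as did fixed depths on Illumina. Of 3 blood markers only Vav1 had one, which was higher in mESCs (log2 fold change 3.04 on BGI and 3.22 on Illumina) but lower when peaks within 2 kb of a start site were allowed (-0.52 and -0.46). The part of other cell types in the values at Pou5f1 was not tested. Fewer cells with open DNA and less open DNA per cell cannot be told apart in these bulk samples.

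In mESCs the peaks from -15476 bp to intron 1 were all open, whereas in MEFs they held few reads. On BGI, 10 of the 13 locus peaks were higher in mESCs, 2 were lower and 1 did not pass the test (edgeR quasi-likelihood test, adjusted p under 0.05 over all peaks). Over all BGI peaks, 40.9% passed upward and 43.2% downward. On Illumina 11 of 14 were higher, 2 lower and 1 not called, against 42.1% higher and 42.4% lower over all peaks. The CPM values of the cell types did not overlap at the same numbers of peaks (10 higher and 2 lower on BGI, 11 and 2 on Illumina), where 42.9% and 42.2% of all BGI peaks and 43.7% and 41.8% of all Illumina peaks were so separated upward and downward. The median log2 fold change of the locus peaks was 2.84 on BGI and 3.04 on Illumina, beside -0.08 and -0.03 over all peaks. Membership itself leans on these samples: 9 of the 13 BGI peaks and 12 of the 14 Illumina peaks were listed as reproducible in mESCs only. Among them are the distal enhancer, proximal enhancer, promoter, intron 1 and upstream peaks, and on Illumina also exon 3. A difference at those peaks was to be had from the way the sets were built. The counts, and the p-values and ranks of those peaks given below, are a description.

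**Figure D1:**
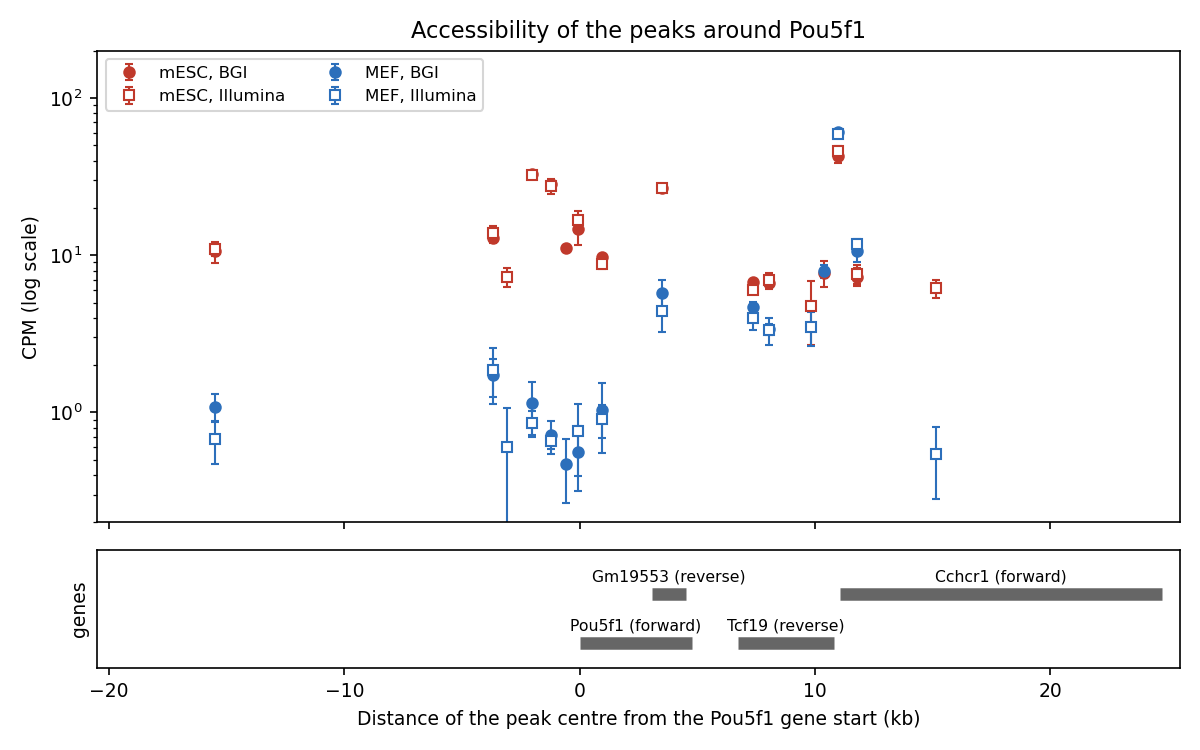
Mean CPM (log scale, bars SD, n = 3) of each locus peak against the distance of its centre from the Pou5f1 gene start in kb, for mESCs (red) and MEFs (blue) on BGI (filled circles) and Illumina (open squares), with the annotated genes of the window below. The red points lie far above the blue ones from -15476 bp to 961 bp, the gap narrows at 3496 bp (26.8 against 5.78 CPM on BGI), and blue lies above red at the Tcf19/Cchcr1 promoter.

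The distal enhancer peak (chromosome 17, 35503732 to 35504233 in the BGI set, intergenic) was the most accessible Pou5f1 element in mESCs. On BGI it held 26, 31 and 14 reads in MEF libraries 1, 2 and 4, or 1.20, 1.54 and 0.697 CPM, and 505, 560 and 550 reads in mESC libraries 1, 3 and 5, or 31.8, 33.1 and 34.2 CPM. The lowest mESC sample thus stood far above the highest MEF sample. The mean of mESCs was 33.0 ± 1.17 CPM and that of MEFs 1.15 ± 0.425 CPM (SD, n = 3 each), a ratio of 28.8, and the log2 fold change was 4.77 ± 0.19 (SE, edgeR adjusted p = 7.96e-13). The Illumina samples gave 17, 21 and 15 reads in MEFs and 513, 539 and 530 reads in mESCs, with means of 0.858 ± 0.163 and 32.2 ± 0.565 CPM and 5.18 ± 0.17 for the log2 fold change (edgeR, SE, adjusted p = 6.98e-14). With 94.5% of all BGI peaks below it, this element ranked among the more open sites of mESCs, while only 15.9% of peaks lay below it in MEFs.

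The proximal enhancer peak (35504530 to 35505031 in the BGI set) had a log2 fold change above that of every other locus peak on BGI. On Illumina it and the distal enhancer were close, and their order turned without MEF library 2 (5.26 against 5.30). BGI counts were 12, 14 and 18 in MEFs and 423, 490 and 484 in mESCs, which is 0.554, 0.696 and 0.896 CPM against 26.7, 29.0 and 30.1 CPM. The mESC mean of 28.6 ± 1.73 CPM was 39.9 times the MEF mean of 0.715 ± 0.172 CPM (SD, n = 3 each). The log2 fold change was 5.25 ± 0.19 on BGI (SE, edgeR adjusted p = 2.54e-13), above that of 98.7% of all BGI peaks, and 5.32 ± 0.19 on Illumina (edgeR adjusted p = 1.73e-13). On Illumina the peak was centred further toward the gene, at -1107 bp against -1238 bp, and stood at 0.746, 0.646 and 0.591 CPM in MEFs and 25.1, 26.4 and 31.1 CPM in mESCs. No MEF sample reached 1 CPM here in the peak set of its own platform.

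The promoter peak (35505718 to 35506219, from upstream DNA into exon 1) was open in mESCs at a lower level than either enhancer. Its BGI values were 0.600, 0.795 and 0.299 CPM in MEFs (13, 16 and 6 reads) and 14.3, 17.9 and 11.9 CPM in mESCs (227, 303 and 191 reads). The mESC mean was 14.7 ± 3.04 CPM and the MEF mean 0.565 ± 0.250 CPM, and the log2 fold change was 4.62 ± 0.29 (edgeR, SE, adjusted p = 1.21e-10). Illumina gave 0.513, 1.19 and 0.591 CPM in MEFs and 15.8, 19.5 and 14.8 CPM in mESCs, and 4.40 ± 0.26 (edgeR adjusted p = 4.85e-11). Library 3 was the highest of the mESC libraries at this peak on both instruments. Of the BGI peaks of the locus this was the only one with another match in the genome, of 126 bp at 97.6% identity, and the authors kept uniquely mapped reads. A second peak of the promoter class, at -568 bp (35505200 to 35505701), was defined on BGI only and had 9, 14 and 6 reads in MEFs against 168, 197 and 176 in mESCs (log2 fold change 4.47 ± 0.29, SE, edgeR adjusted p = 1.56e-10).

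Exon 3 was the element of Pou5f1 that was also open in MEFs. The peak (35509264 to 35509765) spans coding exon 3 and flanking intron, lies 443 bp from an annotated internal start site of Pou5f1 and also overlaps Gm19553, an antisense gene, and ATAC-seq reads do not tell these apart. BGI counts were 145, 90 and 124 in MEFs, or 6.69, 4.47 and 6.17 CPM, and 439, 441 and 428 in mESCs, or 27.7, 26.1 and 26.6 CPM. Illumina counts were 105, 62 and 109 in MEFs and 438, 441 and 444 in mESCs. MEF samples thus held several times more reads here than at the enhancers or promoter, and the mESC level (26.8 ± 0.818 CPM on BGI, SD, n = 3) was near that of the proximal enhancer. The cell types still differed, by a ratio of 4.63 on BGI and 6.06 on Illumina, past the edgeR threshold on both (adjusted p = 4.75e-10 and 1.59e-10). In MEFs 40.0% of all BGI peaks and 33.4% of all Illumina peaks were less accessible than this exon. The peak in intron 1 (35506729 to 35507230) resembled the upstream peaks, with 14, 18 and 32 reads in MEFs and 159, 161 and 155 in mESCs on BGI and log2 fold changes of 3.15 ± 0.28 and 3.24 ± 0.26 (SE, edgeR adjusted p = 8.47e-09 and 2.01e-09 on BGI and Illumina).

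**Figure D2:**
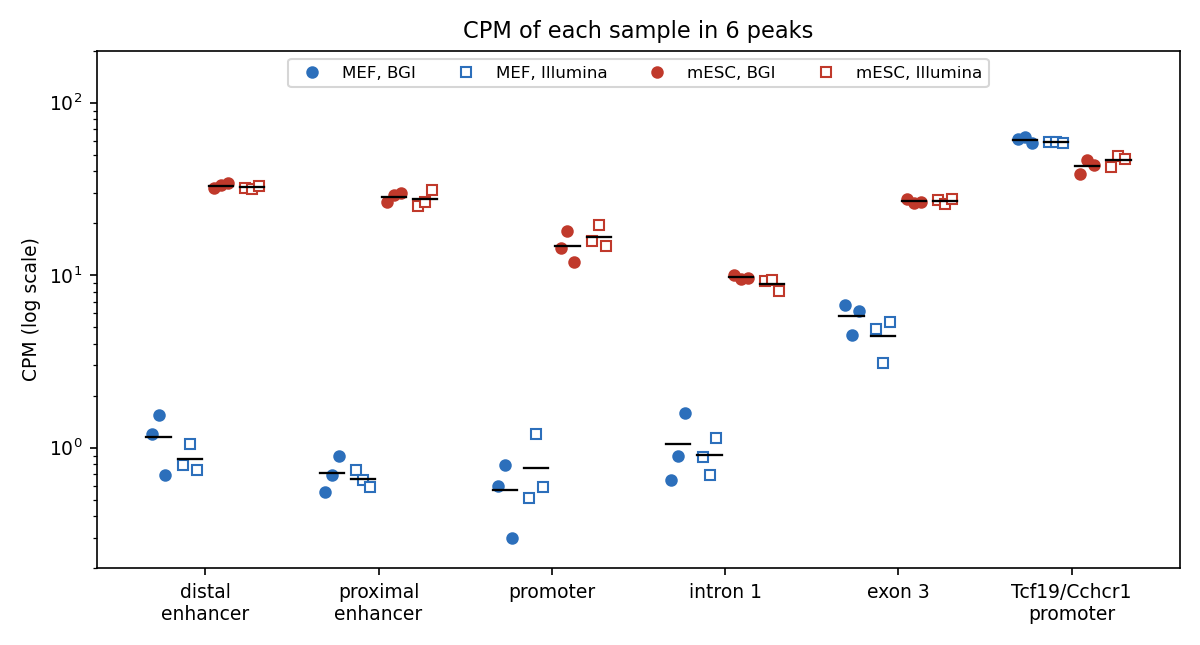
CPM (log scale) of every sample in 6 locus peaks on the peak set of its own platform, MEFs in blue and mESCs in red, BGI as filled circles and Illumina as open squares, with black bars at the mean of 3 libraries. Exon 3 is the Pou5f1 peak with the highest MEF points, from 3.08 to 6.69 CPM, and the mESC points of the distal enhancer lie between 31.8 and 34.2 CPM.

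In mESCs the order of accessibility of the Pou5f1 peaks found on both platforms was the same: distal enhancer, proximal enhancer, exon 3, promoter and intron 1. In the peaks of their own platform, the distal enhancer samples did not overlap those of the proximal enhancer. Counted in the BGI peaks, the Illumina samples overlapped (proximal enhancer up to 32.0 CPM, distal enhancer from 31.2 CPM). The proximal enhancer and exon 3 overlapped, and exon 3 lay above the promoter in every sample (lowest 26.1 against highest 17.9 CPM on BGI, and 26.0 against 19.5 on Illumina). In MEFs exon 3 lay above all other Pou5f1 peaks without overlap, and the distal enhancer, intron 1, proximal enhancer and promoter peaks followed at 0.565 to 1.15 CPM on BGI, where each overlapped its neighbour in the order. The peak at -568 bp, of the BGI set only, ranked between the promoter and intron 1 in mESCs and last in MEFs.

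Ratios between peaks of 1 sample, in which sequencing depth cancels, were compared to ask whether the elements changed by the same factor. The distal enhancer had 2.22, 1.85 and 2.88 times the promoter reads in mESC libraries 1, 3 and 5 on BGI and 2, 1.94 and 2.33 times in MEF libraries 1, 2 and 4. The mESC minus MEF difference of the log2 ratio was 0.13 on BGI (two-sided exact permutation test p = 0.7) and 0.70 on Illumina (exact p = 0.1), where the MEF ratios rested on 11 to 24 reads per peak. For the proximal enhancer over the promoter the difference was 0.55 on BGI and 0.84 on Illumina (exact permutation p = 0.4 and 0.2), and for the distal over the proximal enhancer -0.42 and -0.13 (exact permutation p = 0.4 and 0.6). Without single libraries the proximal enhancer to promoter difference ran from 0.24 to 1.13 for BGI samples and from 0.45 to 1.17 for Illumina samples, and that of the distal over the proximal enhancer from -0.92 to -0.17 on BGI. On Illumina the latter turned sign (-0.27 to 0.029). That of the distal enhancer over the promoter turned sign on BGI (-0.039 to 0.28) and ran from 0.48 to 0.89 on Illumina. None of these 6 comparisons passed after Benjamini-Hochberg adjustment (lowest adjusted p = 0.6, exact permutation tests), and 3 against 3 samples cannot give less than 0.1.

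The ratio of exon 3 to the promoter was added after the MEF level of exon 3 had been seen. It was 11.2, 5.63 and 20.7 in MEF libraries 1, 2 and 4 on BGI, and 1.93, 1.46 and 2.24 in mESC libraries 1, 3 and 5. On Illumina it was 9.55, 2.58 and 9.08 in MEFs and 1.73, 1.33 and 1.86 in mESCs. Every MEF sample was above every mESC sample of its platform, with a log2 difference (mESC minus MEF) of -2.56 on BGI and -1.90 on Illumina. Without single libraries it ran from -3.04 to -2.10 and from -2.52 to -1.58. Since the ratio was chosen for that MEF level, these values are a description and no test is given.

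**Figure D3:**
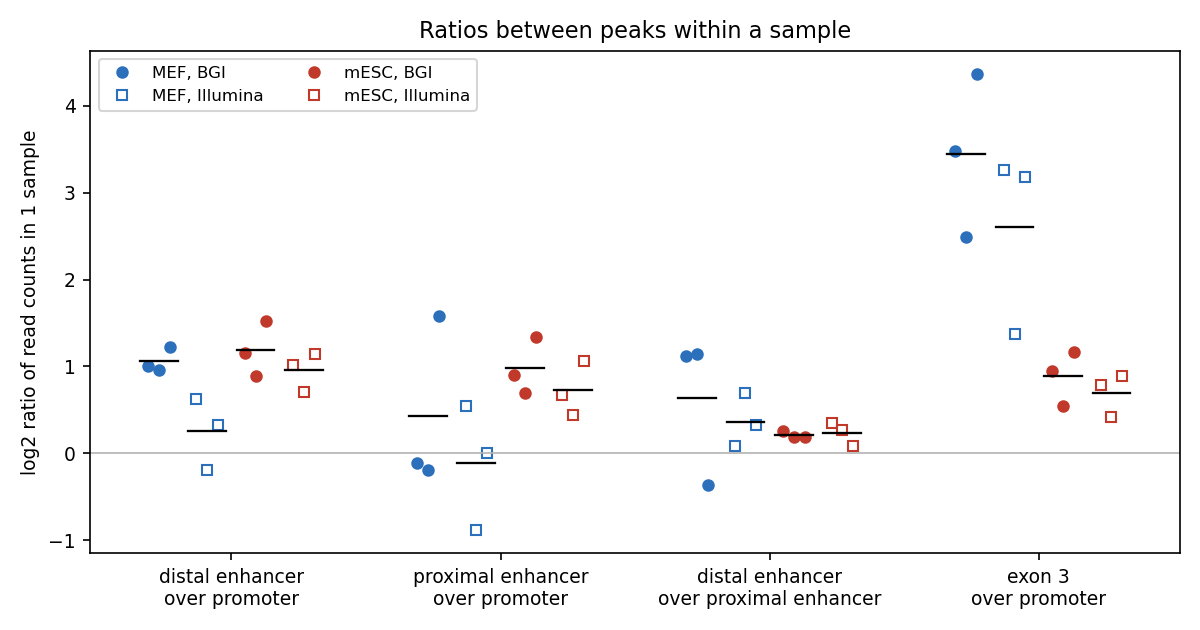
Log2 ratio of the read counts of 2 peaks of the same sample (y axis) for 4 pairs of peaks, MEFs in blue and mESCs in red, BGI as filled circles and Illumina as open squares, black bars at the mean of 3 libraries. The distal enhancer to promoter ratios of the cell types overlap on BGI, while on Illumina the mESC points (mean 0.96) all lie above those of MEFs (0.25). The exon 3 to promoter ratios of MEFs (means 3.45 and 2.60) lie above those of mESCs (0.89 and 0.70).

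Upstream of the enhancers, 2 further intergenic peaks followed the same direction on both platforms. At -3666 bp (35502102 to 35502603) MEFs had 27, 35 and 44 reads and mESCs 189, 235 and 207 on BGI, and the log2 fold change was 2.84 ± 0.22 (edgeR, SE, adjusted p = 1.73e-09). At -15476 bp (35490292 to 35490793) the counts were 18, 25 and 24 against 184, 192 and 141, with 3.21 ± 0.25 on BGI and 3.95 ± 0.26 on Illumina (SE, edgeR adjusted p = 1.79e-09 and 1.95e-10). A peak at -3084 bp and one at 15157 bp in an exon of Cchcr1 were defined on Illumina only, with 100, 125 and 132 and 84, 117 and 102 reads in mESCs against 6, 8 and 23 and 16, 13 and 5 in MEFs. The window thus held mESC-open peaks far beyond the classical elements.

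Downstream, the neighbouring genes showed another pattern. The peak at 10975 bp (35516743 to 35517244) covers the start sites of Tcf19, a factor linked to cell growth, and of Cchcr1, a coiled-coil protein gene, which are transcribed away from each other. It was the most accessible peak of the window in both cell types, with 1330, 1270 and 1179 reads in MEFs (61.1 ± 2.23 CPM) and 608, 791 and 703 in mESCs (42.9 ± 4.27 CPM) on BGI. All MEF samples were above all mESC samples, and the log2 fold change was -0.58 ± 0.09 on BGI and -0.40 ± 0.08 on Illumina (SE, edgeR adjusted p = 1.95e-05 and 0.000213). The peak at 11779 bp in Cchcr1 was lower in mESCs as well (-0.60 and -0.67, edgeR adjusted p = 0.00401 and 0.000763), while that at 10387 bp, in Tcf19 and defined on BGI only, stood at 7.89 ± 0.762 CPM in MEFs and 7.72 ± 1.45 CPM in mESCs and did not pass (SD, n = 3 each, edgeR adjusted p = 0.616). The peak at 9846 bp, defined on Illumina only, did not pass either (log2 fold change 0.39 ± 0.31, SE, edgeR adjusted p = 0.240). Within Tcf19, the peak at 8048 bp was higher in mESCs (0.91 ± 0.21 and 1.01 ± 0.22, SE, edgeR adjusted p = 0.000728 and 0.000369 on BGI and Illumina). The peak at 7386 bp was higher by 0.45 ± 0.20 and 0.56 ± 0.21 (adjusted p = 0.0429 and 0.0213), and lost that call without MEF library 1 or 4 or any 1 mESC library on BGI, and without MEF library 2 or 4 or mESC library 3 or 5 on Illumina. Without mESC library 3, the peak at 9846 bp passed (adjusted p = 0.0309).

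**Figure D4:**
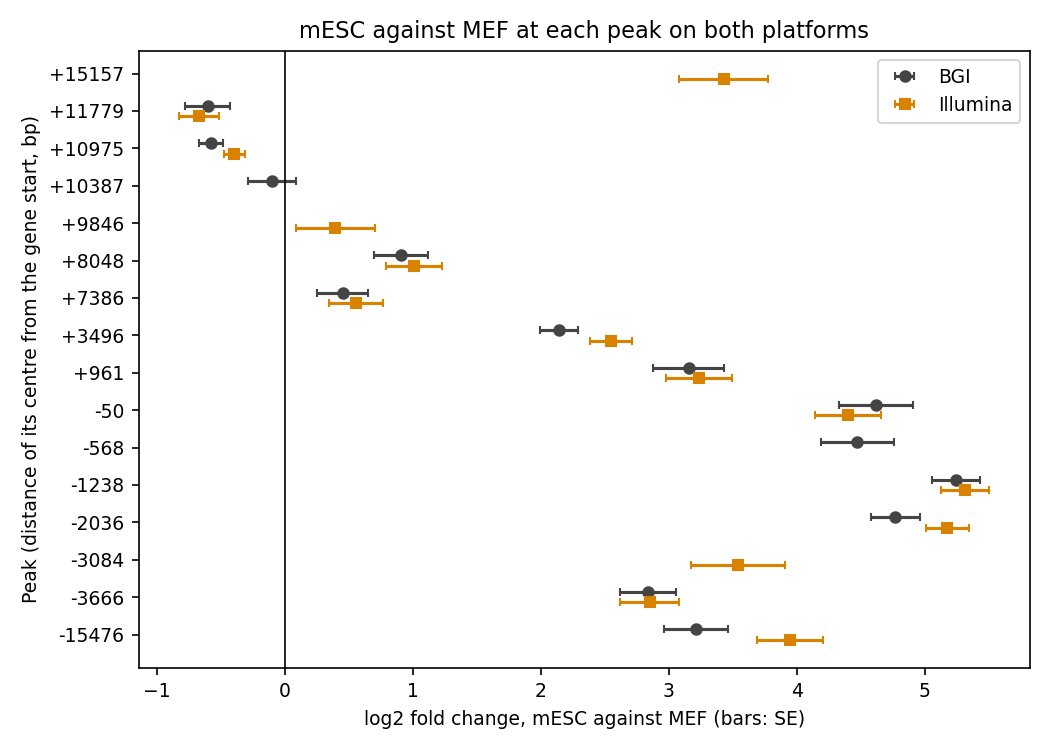
Log2 fold change of mESC against MEF (x axis, bars SE) of each locus peak, named by the distance of its centre from the gene start in bp, on BGI (circles) and Illumina (squares). The proximal enhancer at -1238 bp lies at 5.25 and 5.32, close to the distal enhancer on Illumina (5.18), exon 3 at 3496 bp has less than the upstream peaks (2.14 and 2.55), and the Tcf19/Cchcr1 promoter at 10975 bp lies left of 0.

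Summits called by the authors in each sample alone placed the open sites at finer resolution. All 6 mESC samples had a summit in the distal enhancer, the strongest at -2056 to -2013 bp with a -log10 p of 148 to 216 and a fold enrichment of 34.7 to 45.8 over the genome-wide background. The strongest proximal enhancer summit lay at -1259 to -1106 bp (-log10 p 94.6 to 140), that of the promoter at -67 to -36 bp (45.3 to 95.1), and that of the exon 3 peak at 3497 to 3540 bp (132 to 171). The exon 3 peak summit had a larger -log10 p than the proximal enhancer summit in all 6 mESC samples, unlike the order of their mean CPM. In 5 of the 6 mESC samples the exon 3 peak summit lay 1 to 20 bp past the end of exon 3, in intron 3, and in 1 sample within the exon. The strongest distal enhancer summit was on the upstream side of the Sox-Oct core at -1965 bp in all 6 samples, and mESC library 1 had a second, weaker one on each platform, at -1767 bp on BGI and -2708 bp on Illumina. In the 6 MEF samples no summit was called between -3000 and 500 bp, where mESC samples had 4 to 6. All 6 MEF samples had a summit in exon 3, at 3460 to 3503 bp with a -log10 p of 10.6 to 43.3, above which 20.5% to 49.4% of each sample's summits lay. The whole window held 7 to 13 summits in MEFs and 35 to 43 in mESCs. In MEFs the exon 3 peak passed the reproducibility filter of the authors on BGI, with 4 listed peaks in the window, but not on Illumina, with 2, and the enhancers and promoter passed it in mESCs on both platforms (12 and 14 listed peaks).

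**Figure D5:**
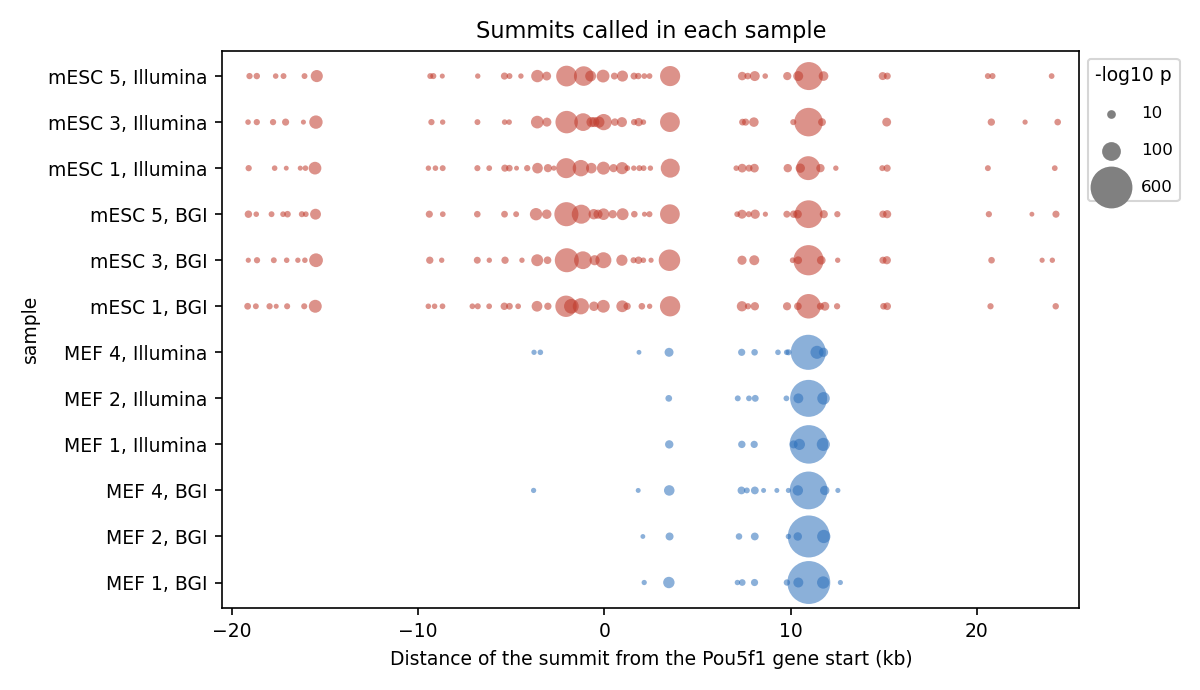
Position of each called summit relative to the Pou5f1 gene start (x axis, kb) in each of the 12 samples (rows, with library number and platform), with the area of a point growing with its -log10 p, mESCs in red and MEFs in blue. The MEF rows are empty between -3000 and 500 bp, and all 12 rows have a point at the exon 3 peak (3460 to 3540 bp) and their largest at the Tcf19/Cchcr1 promoter.

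Whether the cell type contrast differed between the platforms was tested next. In a fit of all 12 samples on the BGI peak set the interaction of platform and cell type passed the test at 0 of the 13 peaks and at 0 of all 91354 peaks (0%, edgeR, with 2386 of all peaks and 0 of the 13 at an unadjusted p under 0.05, and 0 called by DESeq2). The difference of the log2 fold changes, BGI minus Illumina, was -0.30 ± 0.29 at the distal enhancer, -0.21 ± 0.31 at the proximal enhancer, 0.25 ± 0.47 at the promoter and -0.21 ± 0.23 at exon 3 (SE). These SE come from the fit without a library block, which leaves out the pairing of the samples. With library number as a block, 353 peaks passed over all (0.386%), none of them at the locus. Since the same 6 libraries were read on both instruments, the number pairs the samples.

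Within mESCs, BGI and Illumina were compared on the 15 locus peaks of the mESC set. Without the block none passed (3.23% of 67063 peaks did, edgeR), 1 had an unadjusted p under 0.05, and DESeq2 called none of the 9 for which it gave an adjusted p. With the block 21.3% of all peaks passed, 10431 of them lower on BGI and 3873 higher. At the locus 3 passed with the block, a share near that of the background. All were lower on BGI: the peak at -568 bp (11.1 ± 0.510 CPM on BGI and 13.2 ± 1.41 on Illumina, SD, n = 3, log2 difference -0.30 ± 0.09, SE, edgeR adjusted p = 0.00785), the promoter (14.9 ± 3.09 and 17.0 ± 2.36 CPM, -0.25 ± 0.08, adjusted p = 0.0133) and the Tcf19/Cchcr1 promoter (-0.14 ± 0.05, adjusted p = 0.0206). With an offset for GC content added to the block, the peak at -568 bp alone still passed (-0.33, adjusted p = 0.00640), beside 6088 of 66993 peaks over all. At the distal enhancer the platforms differed by 0.02 ± 0.06 and at exon 3 by 0.01 ± 0.06 with the block (SE). Within MEFs none of the 4 locus peaks passed without the block (4.06% of 61891 peaks did, edgeR), with 1 at an unadjusted p under 0.05 and none called by DESeq2, and with it only the peak at 10387 bp in Tcf19 did (29.2% of all peaks), lower on BGI by -0.40 ± 0.10 on the log2 scale (SE, edgeR adjusted p = 0.00165). With the GC offset added to the block that peak still passed (-0.50, adjusted p = 0.000200), and the Tcf19/Cchcr1 promoter did too, higher on BGI by 0.25 ± 0.04 (SE, edgeR adjusted p = 6.03e-06). Over all peaks 8152 of 61846 passed in that fit. In MEFs exon 3 stood at 5.74 ± 1.09 CPM on BGI and at 4.49 ± 1.23 on Illumina (SD, n = 3 each), with adjusted p = 0.0636 under the block and 0.622 without it (edgeR).

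Promoter peaks of the wider pluripotency network were set beside the locus. Of 24 genes, all with a promoter peak, 20 were higher, 3 lower and 1 not called on both platforms, against the 40.9% higher and 43.2% lower of all BGI peaks and the 42.1% and 42.4% of all Illumina peaks, with a median log2 fold change of 2.91 on BGI and 2.78 on Illumina. Zfp42, the Rex1 marker of naive cells, had 53.1 CPM in mESCs and 1.21 in MEFs on BGI (5.38 ± 0.16, SE, edgeR adjusted p = 5.60e-14). Tfcp2l1, a naive pluripotency factor, rose by 1.66 ± 0.16, and Prdm14, which restrains DNA methylation, by 2.01 ± 0.20 (SE, edgeR adjusted p = 2.47e-08 and 5.29e-08). Of the Klf factors, Klf5 was higher (0.55), Klf2 did not pass (0.15, adjusted p = 0.127) and Klf4 was slightly lower (-0.27, edgeR adjusted p = 0.0493) on BGI. Klf2 passed upward on BGI under DESeq2 (0.19, adjusted p = 0.0182), RLE factors and fixed depths. The Klf4 call on BGI was lost under DESeq2, RLE factors, fixed depths and the filter at a mean count of 50, and without MEF library 4 or any 1 mESC library, with log2 fold changes of -0.33 to -0.11 over the left-out libraries (edgeR adjusted p = 0.0347 to 0.396). On Illumina Klf4 passed (-0.29, edgeR adjusted p = 0.00938) but not with fixed depths. The other 2 lower promoters were Tbx3 (-0.52) and Fbxo15 (-0.39), named after their values were seen. The median of this list was below the log2 fold changes of the Pou5f1 enhancers and promoter and above that of exon 3.

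Promoter peaks of genes known as activators or repressors of the Pou5f1 promoter and enhancers were mixed. Of 22 genes, 21 had a promoter peak, of which 9 were higher, 6 lower and 6 not called on BGI, and 8, 8 and 5 on Illumina. Beside the 40.9% and 43.2% of all BGI peaks and the 42.1% and 42.4% of all Illumina peaks called higher and lower, the share called higher was near the background on both platforms. With the fixed depths to which the authors had down-sampled, 3 were lower on each platform. The activators Sox2, Nanog, Esrrb and Nr5a2 were higher in mESCs on both platforms, by log2 fold changes of 1.80 (Nr5a2) to 6.12 (Esrrb) on BGI and 0.54 to 6.89 on Illumina, the Nr5a2 peaks of the sets being offset from each other. Sall4, an activator as well, rose by 3.50 ± 0.16 on BGI and 3.28 ± 0.17 on Illumina (SE, edgeR adjusted p = 2.38e-12 and 1.35e-11). Foxd3, another, rose by 2.09 ± 0.20 on BGI and by 0.88 ± 0.19 on Illumina (SE, edgeR adjusted p = 2.29e-08 and 0.000314), but at different peaks, over a start site on BGI and 806 bp from one on Illumina. The activators Klf2 and Sp3 did not pass on BGI, and Klf4 and Sp1 (-0.24, edgeR adjusted p = 0.0155) were lower, the latter no longer with fixed depths or without MEF library 1 or 2 or mESC library 1 or 5 (adjusted p = 0.0619 to 0.101). Rara, a retinoic acid receptor gene, was lower in mESCs by -0.53 on BGI and -0.57 on Illumina (edgeR adjusted p = 0.000126 and 3.73e-05). Rarb was lower by -0.33 and -0.31 (edgeR adjusted p = 0.0139 and 0.0243), but not with fixed depths, without MEF library 4 on BGI (-0.25, adjusted p = 0.0644) or without MEF library 1, mESC library 1 or mESC library 5 on Illumina (adjusted p = 0.0749 to 0.127). Genes of repressors went both ways on BGI, with Nr6a1 (0.62, edgeR adjusted p = 0.000792) and Dnmt3a (0.95, adjusted p = 7.46e-07) higher in mESCs and Dnmt3b (-0.49, adjusted p = 0.00218) and Ehmt2 (-0.60, adjusted p = 0.00107) lower. All 4 passed in the same direction on Illumina. Dnmt1 was higher on BGI (0.28, edgeR adjusted p = 0.0331), a call lost without MEF library 1 or 2 or mESC library 3 (adjusted p = 0.0641 to 0.164). On Illumina Dnmt1 did not pass (0.20, edgeR adjusted p = 0.0638). Nr2f1, Nr2f2, Ehmt1 and Trim28, also of the list, did not pass on BGI. On Illumina Nr2f1 (-0.35, edgeR adjusted p = 0.0109) and Ehmt1 (-0.25, adjusted p = 0.0166) were lower. Sp1, Sp3 and the genes given here after Rarb were named after their values were seen. Over the list the median log2 fold change was 0.15 on BGI and 0.00 on Illumina.

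Promoter peaks of other protein-coding genes were ranked by the root mean square difference of log2 CPM from a Pou5f1 peak over the 12 samples, among 15125 genes on the BGI set. The 5 nearest to the Pou5f1 promoter were Ldhal6b (0.28), Tuba3a (0.31), Ubash3a (0.35), Apobec3 (0.36) and Ccdc162 (0.36). Those nearest to the distal enhancer were Catsperg1 (0.22), 1700008O03Rik (0.27), Rdh10 (0.28), H2afx (0.28) and Zfp236 (0.28). None of these 10 genes is in the pluripotency or regulator lists. On the Illumina set Eef1a1 and Plekhh1 were among the 5 nearest to the promoter in place of Ubash3a and Ccdc162. The 5 nearest to the distal enhancer were the same genes in another order. The measure is a description over 6 libraries read 2 times each, with library and depth shared between all peaks.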

How the data were processed

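ATAC-seq libraries of MEFs and mESCs had been sequenced on both instruments, and the authors aligned reads to GRCm38 (mm10) with Bowtie2, removed duplicates, kept unique non-mitochondrial reads, down-sampled MEF samples to 60 M and mESC samples to 45 M reads, and called peaks per sample with MACS2. The deposited tables hold raw read counts per peak for 4 peak sets. The deposited peak calls give the -log10 p-value and the fold enrichment of each summit as a ratio, both by the authors. The deposited lists of reproducible peaks were used for positions, and the consensus lists of the series were not used. 0 per-sample columns were left unmapped.

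Counts were tested over all peaks of a set with edgeR 4.0.16 (TMM, filterByExpr, quasi-likelihood test, Benjamini-Hochberg, threshold 0.05) in R 4.3.3, without covariates. SE is the log2 fold change over the square root of F. Alternatives were DESeq2 1.42.0, RLE factors, fixed depths, no filter, a mean count of at least 50, single libraries left out, the other platform's samples and a library block. Same-numbered samples of the platforms come from 1 library by the study's methods, and their deviations correlated by 0.51 to 0.84, against at most 0.30 between other libraries. The scripts were tested on simulated data. Genes were from GENCODE vM21, with 1 promoter peak per gene within 1 kb of a start site and genes named from the first 10 of each list, besides those said to have been named after their values were seen. Other genomic matches were sought with BLAST 2.17.0 (at least 100 bp at 90%). All peaks of the window were named. The members, lists and tests were chosen with earlier results of these data known.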

Additional observations from a re-analysis of the deposited data

How the results depend on the processing

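Of the 27 cell type results at the locus peaks, 24 kept their call in every alternative. The exceptions were the peaks at 7386 bp and 9846 bp, given above. Among the 27 the uncalled peak at 10387 bp alone turned direction, from -0.10 to 0.07 without mESC library 3 and to 0.04 with fixed depths. Called higher were 9 to 10 BGI peaks and 10 to 11 Illumina peaks when single libraries were left out. Of the called locus peaks, 8 of 12 on BGI and 10 of 13 on Illumina had an absolute log2 fold change of 1 or more. Over all peaks, 57598 of 76825 called on BGI and 53802 of 73566 called on Illumina reached that size, so most called peaks of either set did. No paired analysis was made for mESC against MEF, since neither the labels nor the study's methods pair libraries of the cell types. In the platform comparisons the replicate block moved the number of locus peaks called from 0 to 3 in mESCs and from 0 to 1 in MEFs, and with the GC offset to 1 and 2. The shares over all peaks in these fits are given above. Without MEF library 4, 1 MEF peak passed, beside 6132 of 61891 over all. The interaction stayed at 0 locus peaks with the block, also on the Illumina peak set, an alternative added after seeing the data. The block was used for no other result. With fixed depths, which moved the median log2 fold change of all peaks up, from -0.08 to 0.06 (BGI) and from -0.03 to 0.09 (Illumina), 3 regulator promoters were lower on each platform in place of 6 and 8. The log2 difference of the distal enhancer to promoter ratio ranged from -0.039 to 0.28 without single BGI libraries, turning sign without mESC library 5, and was 0.60 with Illumina samples in the BGI peaks and 0.28 with BGI samples in the Illumina peaks. That of the distal over the proximal enhancer ranged from -0.27 to 0.029 without single Illumina libraries, turning sign without MEF library 2. The cause was not tested. MEF enhancer and promoter peaks held 6 to 31 reads, which limits their ratios.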
